A study of Mus musculus with 16 samples.

Results

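The transcripts followed here are those of 48 genes of the lysosome, picked by gene symbol from a table of 52338 genes. They comprise 12 proteases, 10 glycosidases, 3 sulfatases, 6 genes of lipid breakdown and export, 7 membrane proteins, 6 genes of the proton pump, the transcription factors Tfeb, Tfe3 and Mitf, and progranulin (Grn). All 48 were in the table and all 48 passed the filter on low counts, which left 17731 genes to test. The kidneys were those of C57BL6 mice given either FAN or vehicle, taken on day 15. What FAN stands for is not spelled out in the labels, although every library's column in the table begins with folic. All groups ate a high-fat diet, with feeding ad libitum in some and time-restricted in others, and each of the 4 combinations of agent and feeding has 4 libraries. No group was on another diet, and age, sex and the hours of feeding are not given in the sources used here. RNA was taken from powdered kidney tissue, so each value is a mix over all cell types.

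Lysosomes are acidic organelles in which hydrolases digest proteins, glycans, sulfated sugars and lipids brought in by endocytosis, phagocytosis and autophagy. A proton pump, the V-ATPase, keeps them acidic by driving protons through a membrane sector (V0) with a soluble ATP-splitting sector (V1). Heavily glycosylated membrane proteins line the organelle, and TFEB, TFE3 and MITF are related transcription factors that bind E-box motifs in front of many lysosomal genes. In the kidney, proximal tubule cells use lysosomes to digest the proteins they reabsorb from the filtrate, and macrophages use them to digest what they engulf.

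Many lysosomal genes carry a palindromic E-box in the promoter, so the windows from 250 bases before to 50 bases after each RefSeq start (GRCm38.p6) were searched for it. A window was found for 41 of the 48 genes. The 8-base motif TCACGTGA, which reads the same on both strands, lay in the windows of 7 of these 41 genes (17.1%), against 1.12% of 27025 genes with a window and 1.41% of 17492 protein-coding genes. Its core CACGTG, which every copy of the longer motif contains, lay in 14 of 41 (34.1%), against 8.09% of genes with a window. Because the motif is known from lysosomal genes and these genes were picked as lysosomal, the excess is not an independent result. The 9 copies in the 7 genes are shown as the 30 bases around each copy, on the strand of the gene, with the motif in capitals.
Ctsd, chr7:142387908-142387937: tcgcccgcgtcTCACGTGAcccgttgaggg
Ctsa, first copy, chr2:164833749-164833778: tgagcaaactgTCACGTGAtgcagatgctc
Ctsa, second copy, chr2:164833766-164833795: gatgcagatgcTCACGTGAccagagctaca
Gla, first copy, chrX:134601215-134601244: taagcgattgaTCACGTGAgcatctacgtc
Gla, second copy, chrX:134601182-134601211: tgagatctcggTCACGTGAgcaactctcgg
Cln3, chr7:126583340-126583369: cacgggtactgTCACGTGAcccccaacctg
Mcoln1, chr8:3500462-3500491: aggcgccccgcTCACGTGAccgcggcgcat
Atp6v0d1, chr8:105566050-105566079: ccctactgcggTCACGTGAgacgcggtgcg
Atp6v1a, chr16:44139373-44139402: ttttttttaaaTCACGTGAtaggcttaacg
The plus strand carries the copies of Ctsa and Mcoln1, and the minus strand the others. Under ad libitum feeding all 7 genes differed between FAN and vehicle, as did 60.7% of all genes tested, with Ctsd, Gla and Cln3 higher and Ctsa, Mcoln1, Atp6v0d1 and Atp6v1a lower, with Ctsa, Mcoln1 and Atp6v1a positive when libraries were scaled by library size alone. Of the 34 genes whose window lacks the motif, 11 were higher, 10 were lower and 13 did not pass the test. Under time restriction 1 of the 7 was higher with FAN, 3 were lower and 3 did not pass, where 43.5% of all genes were called. With time restriction in FAN kidneys 2 were higher, 1 was lower and 4 did not pass, where 31.8% of all genes were called. A match of letters is a description of the window, and the binding of a factor was not measured.

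Library totals ran from 12450812 to 33976660 counts. Values are CPM, counts scaled to a common library total, after adjustment by TMM, a method that lines up the bulk of genes between libraries. A difference is therefore relative to the other genes of the same library. The TMM factors were 1.32 to 1.53 in FAN ad libitum libraries and 0.816 to 0.975 in all others. Mitochondrial genes took 6.94% to 14.8% of counts in FAN ad libitum libraries and 17.2% to 26.7% elsewhere. Scaled by library size alone, the median log2 change of all genes tested moved from 0.06 to 0.76 for FAN under ad libitum feeding, from 0.05 to 0.16 for FAN under time restriction, and from −0.02 to −0.67 for feeding in FAN mice. Exons of 15 of the 48 genes overlap those of other genes by 10 to 2411 bases in the annotation, and reads there could belong to either (Ctsa, Ctsb, Ctsd, Ctsl, Ctsz, Glb1, Hexa, Idua, Arsa, Arsb, Npc1, Lamp1, Cln3, Atp6v1h and Grn). Only Ctsd (808 bases), Ctsl (395) and Glb1 (165) overlap a gene on the same strand. The other overlaps matter only if reads were counted without regard to strand, which is not given. Cell type markers moved as well. The 15 macrophage markers summed to 2164 to 3308 CPM with FAN and 163 to 309.5 with vehicle under ad libitum feeding, and to 1082 to 2134 with FAN and 156 to 219 with vehicle under time restriction. The 12 proximal tubule markers summed to 7559 to 12414 CPM in FAN ad libitum and 45621 to 69001 in FAN time-restricted libraries, and to 58168 to 79365 in vehicle libraries. The most abundant genes dominate such a sum. The median log2 change of the 12 was −2.33 with FAN under ad libitum feeding and −1.04 under time restriction. Between the feeding regimens in FAN kidneys, time-restricted minus ad libitum, it was 1.49. No marker of the macrophage and proximal tubule lists was at 0 in every library of a group. Their part in the changes of the lysosomal genes was not tested, and in tissue RNA fewer cells of a type cannot be told apart from less RNA per cell.

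FAN raised some lysosomal genes and lowered others. Under ad libitum feeding 17 of the 48 genes were higher in FAN than in vehicle kidneys, 16 were lower and 15 did not pass the threshold of 0.05 on the adjusted p of edgeR's quasi-likelihood test. Those 33 are 68.8% of the genes, against 60.7% of all genes tested (32.1% higher and 28.6% lower), and the median log2 change was 0.11, against 0.06 over all genes. With library-size scaling the counts became 33 higher and 3 lower, and of the 16 falls those of Glb1, Neu1 and Smpd1 were still called. Under time restriction 13 genes were higher, 11 were lower and 24 did not pass (50%, against 43.5% of all genes), with a median of −0.03 against 0.05. Groups did not overlap for 26 genes in the first comparison and 22 in the second, against 54.9% and 40.3% of all genes. The shares called were close to those of all genes in both regimens, and what set the genes apart from one another was direction and size, from −1.56 (Glb1) to 4.36 (Ctss) under ad libitum feeding.

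**Figure D1:**
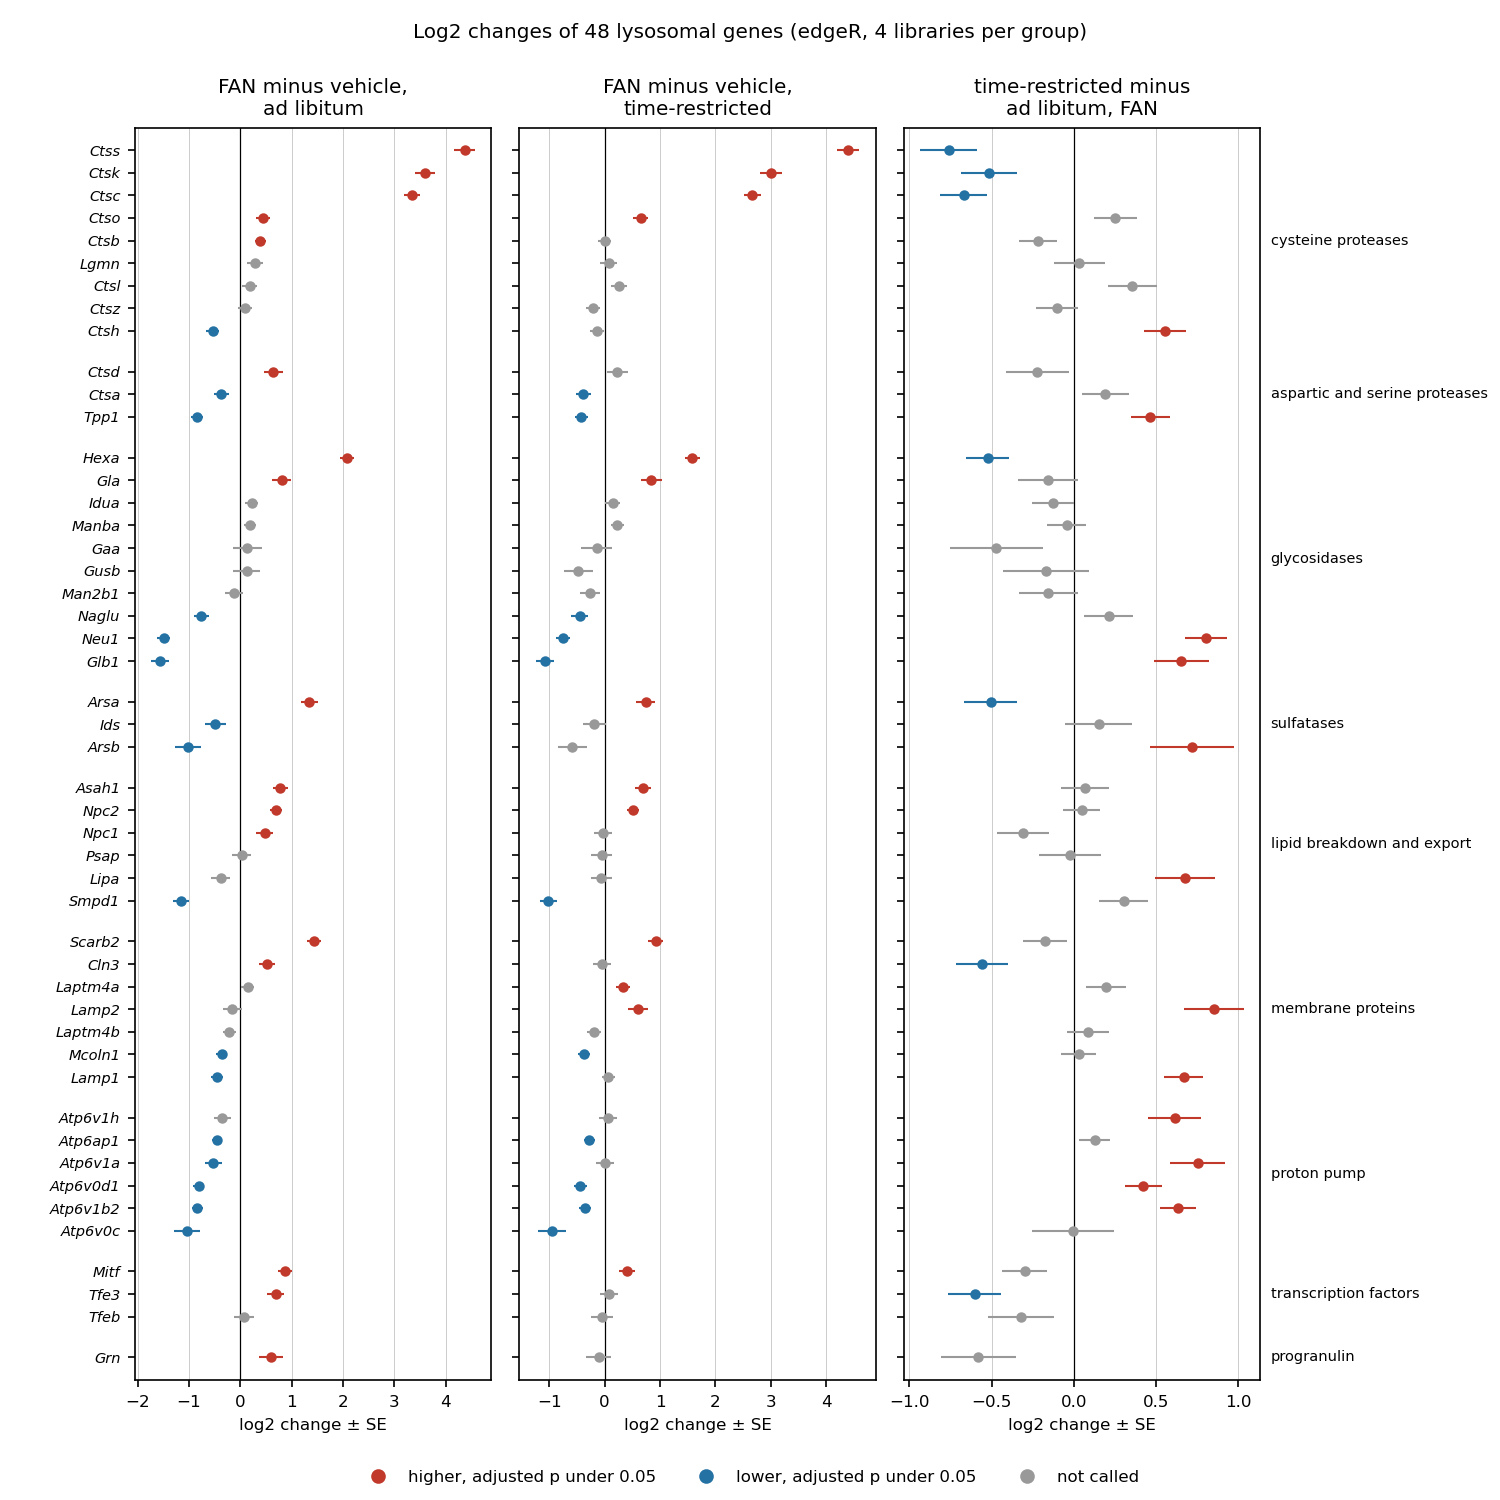
Log2 change and its standard error (horizontal axes, which differ in range) for each of the 48 genes (vertical axis, by role) in the 3 comparisons with calls, 4 libraries a group, TMM scaling, with genes called higher in red, lower in blue and the others in grey. Ctss, Ctsk and Ctsc lie far to the right in both FAN panels, proton pump genes lie at or left of 0 in the first panel and at or right of 0 in the third, and with library-size scaling no gene was called higher in the third.

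Between time-restricted and ad libitum FAN kidneys 12 genes were higher with time restriction, 7 were lower and 29 did not pass (39.6%, against 31.8% of all genes, 17.9% higher and 13.9% lower), with a median log2 change of 0.03 against −0.02. With library-size scaling none of the 12 was called higher and 34 genes were called lower. Groups did not overlap for 16 genes, 12 higher and 4 lower, against 28% of all genes. This comparison uses the same FAN ad libitum libraries as the first, so opposite signs in the pair are not independent.

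Cysteine proteases held the largest increases. Under ad libitum feeding 5 of the 9 rose (Ctss, Ctsk, Ctsc, Ctso and Ctsb), Ctsh fell, and Ctsl, Ctsz and Lgmn did not pass. Only the direction of Ctsh turned with library-size scaling. Cathepsin S (Ctss, ENSMUSG00000038642, chr3:95526786-95556403) trims the invariant chain of MHC class II in antigen-presenting cells. Its level was 325, 365, 382 and 349.7 CPM in FAN ad libitum libraries 6, 7, 10 and 12, and 197, 233, 262 and 146 CPM in the time-restricted FAN libraries 6, 10, 11 and 12. In vehicle libraries 1 to 4 it was 18.2, 21.2, 11.7 and 17.7 CPM under ad libitum feeding and 8.76, 11.4, 10.5 and 9.04 CPM under time restriction. The lowest FAN library stood far above the highest vehicle library, and no pair of groups overlapped. The log2 change with FAN was 4.36 ± 0.20 (adjusted p = 5.60e-11) under ad libitum feeding and 4.39 ± 0.20 (adjusted p = 1.92e-10) under time restriction, and that between the feeding regimens in FAN kidneys, time-restricted minus ad libitum, was −0.76 ± 0.17 (adjusted p = 0.00303). Values here and below are log2 changes ± SE of the edgeR model, with Benjamini-Hochberg adjusted p over all genes, and positions are those of GENCODE M21 on GRCm38.

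Cathepsin C (Ctsc, ENSMUSG00000030560, chr7:88278085-88310888) removes dipeptides and activates the serine proteases of granules. It measured 154, 150.2, 194 and 209 CPM in FAN kidneys fed ad libitum and 121, 113, 124 and 86 in those on time restriction, against 16.6, 19, 14.3 and 20 under the former and 16.5, 16.7, 16.8 and 20.3 under the latter regimen in vehicle kidneys, with the libraries in the same order as above. The FAN groups did not overlap each other or the vehicle groups, while the vehicle groups overlapped. With FAN it rose by 3.34 ± 0.16 (adjusted p = 5.60e-11) under ad libitum feeding and by 2.67 ± 0.15 (adjusted p = 2.63e-09) under time restriction, and time restriction lowered it in FAN kidneys, with a change of −0.67 ± 0.14 (adjusted p = 0.00182). Cathepsin K (Ctsk), a collagen-degrading enzyme best known from osteoclasts, rose by 3.60 ± 0.20 and 3.0 ± 0.20, and changed by −0.52 ± 0.17 with time restriction in FAN kidneys. That last call was lost without FAN ad libitum 10, and likewise without FAN time-restricted 6, 10 or 12 (log2 change −0.50 to −0.41, adjusted p = 0.0675 to 0.1). All 15 macrophage markers were higher with FAN under ad libitum feeding and 14 of 15 under time restriction, and 11 of 15 were lower with time restriction in FAN kidneys. Fibroblast and myofibroblast markers summed to 1097 to 2088 CPM with FAN and 140.0 to 287 with vehicle under ad libitum feeding, and to 589 to 1190 with FAN and 129 to 221 with vehicle under time restriction. Of these 8 genes 7 and 6 were higher with FAN in the 2 regimens, and 6 were lower with time restriction in FAN kidneys. All 6 neutrophil markers tested were higher with FAN in both regimens, with sums of 6.5 to 30.7 CPM against 0.762 to 4.48 in vehicle kidneys, and 2 were lower with time restriction in FAN kidneys. The part of these cell types in the change of the 3 cathepsins was not tested.

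Cathepsin H (Ctsh, ENSMUSG00000032359, chr9:90054152-90076089), an aminopeptidase, went the other way. It measured 192, 179, 249 and 229 CPM with FAN and 289, 339, 306 and 296 with vehicle under ad libitum feeding, and 264, 294, 327 and 362 with FAN and 344, 320.4, 342 and 364 with vehicle under time restriction. All 4 FAN ad libitum libraries lay below every other library. The change with FAN was −0.54 ± 0.13 (adjusted p = 0.00155) under ad libitum feeding and −0.14 ± 0.13 under time restriction, which did not pass, and time restriction raised it in FAN kidneys by 0.55 ± 0.13 (adjusted p = 0.00339). Both signs turned with library-size scaling (0.15 and −0.08). Cathepsin O (Ctso) rose by 0.44 ± 0.13 and 0.66 ± 0.13, and cathepsin B (Ctsb), a broad endo- and exopeptidase, by 0.39 ± 0.12 under ad libitum feeding and did not pass under time restriction (−0.00 ± 0.11). Cathepsin L (Ctsl), cathepsin Z (Ctsz) and legumain (Lgmn), the asparagine-specific protease that is abundant in proximal tubule, stayed between −0.21 and 0.29 with FAN and did not pass in either regimen.

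Together these changes altered the make-up of the cysteine protease transcripts, compared per kilobase of exon. Ctss made up 2.15% ± 0.43 (SD, n = 4) of their summed CPM per kilobase in vehicle kidneys fed ad libitum and 1.1% ± 0.22 in those on time restriction. With FAN it made up 27.3% ± 2.5 and 17.8% ± 3.2. Legumain, the most abundant per kilobase in vehicle kidneys, went from 33.6% ± 2.3 in vehicle ad libitum to 25% ± 4.1 in FAN ad libitum libraries, and Ctsh from 11.7% ± 0.98 to 4.95% ± 0.94. Exon length merges all annotated transcripts of a gene (1358 bases for Ctss, 2323 for Lgmn, 6051 for Ctsb and 6489 for Ctsl). The rank of a gene and the size of its share depend on these lengths. Shares within a library do not depend on its scaling.

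**Figure D2:**
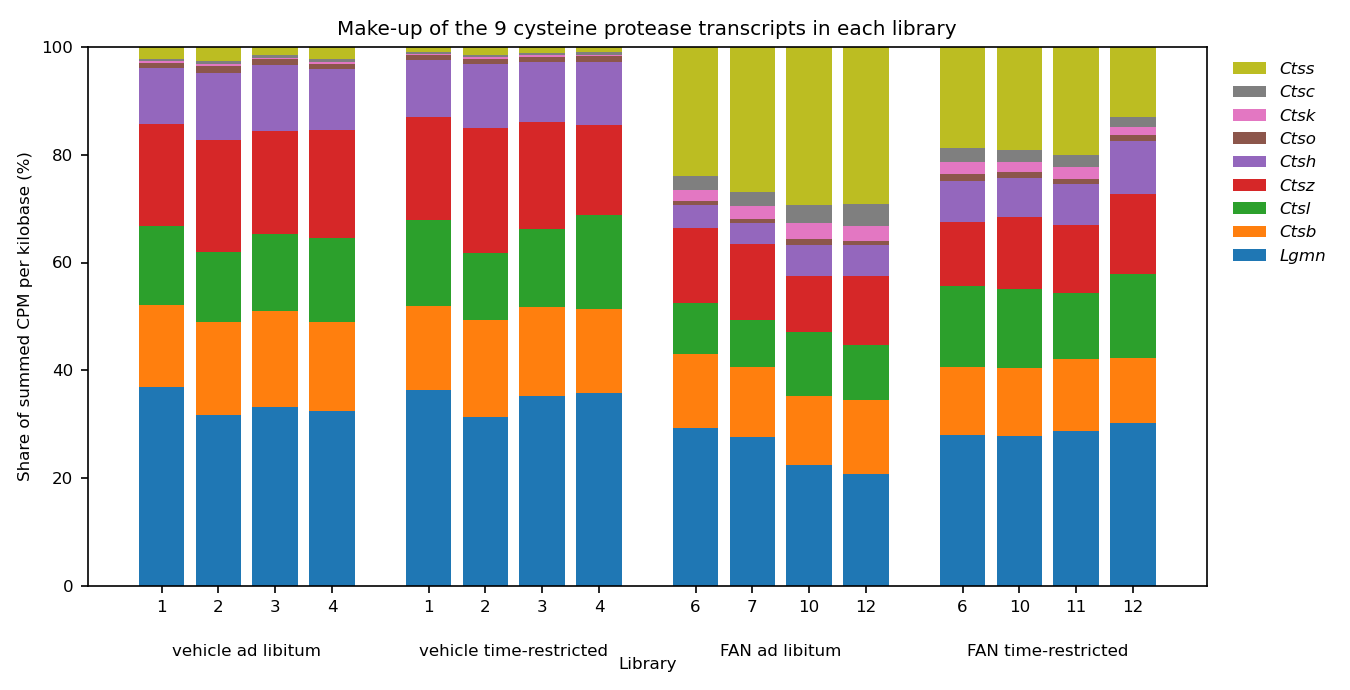
Share of the summed CPM per kilobase (vertical axis, %) taken by each of the 9 cysteine proteases in each of the 16 libraries (horizontal axis, by group and library number). Ctss, the top segment, is thin in all 8 vehicle libraries and wide in all 8 FAN libraries, with group means of 2.15%, 1.1%, 27.3% and 17.8% from left to right.

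The other 3 proteases split. Cathepsin D (Ctsd, ENSMUSG00000007891, chr7:142375911-142388038), the main aspartic protease of the lysosome, measured 421, 337, 556 and 612 CPM in FAN kidneys fed ad libitum and 333, 411, 542 and 364 in those on time restriction, against 251, 382, 307 and 294 under the former and 339, 383, 379.6 and 301.3 under the latter regimen in vehicle kidneys. FAN and vehicle overlapped in both regimens, and FAN ad libitum 10 and 12 were the highest libraries. Its log2 change was 0.64 ± 0.19 (adjusted p = 0.00725) under ad libitum feeding and 0.23 ± 0.19 under time restriction, which did not pass. The annotation places 808 exonic bases of Gm49369 over Ctsd on the same strand, so reads of both may be mixed. Tripeptidyl peptidase 1 (Tpp1, ENSMUSG00000030894, chr7:105744811-105752235) had 171, 146, 141 and 119 CPM with FAN and 249.7, 248, 254 and 278 with vehicle under ad libitum feeding, and 193, 206, 199.7 and 198.9 with FAN and 297, 232, 270.0 and 269 with vehicle under time restriction. FAN groups lay below vehicle groups in both regimens, and the ad libitum FAN group lay below the time-restricted one. Tpp1 fell with FAN, with changes of −0.83 ± 0.12 (adjusted p = 6.90e-06) and −0.42 ± 0.12 (adjusted p = 0.0069), and rose by 0.47 ± 0.12 (adjusted p = 0.00555) with time restriction in FAN kidneys, a sign that turned with library-size scaling (−0.18). Cathepsin A (Ctsa), the carboxypeptidase that protects Neu1 and Glb1 in a shared complex, fell in both regimens, with changes of −0.37 ± 0.14 and −0.38 ± 0.14. The ad libitum call of Ctsa was lost without FAN ad libitum 10 or 12, and likewise without vehicle ad libitum 2 or 4 (log2 change −0.38 to −0.28, adjusted p = 0.0527 to 0.103) and its sign turned with library-size scaling (0.33), and the time-restricted call was lost without FAN time-restricted 6, 10 or 12, and likewise without vehicle time-restricted 1, 2 or 3 (log2 change −0.41 to −0.28, adjusted p = 0.0547 to 0.135).

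Among the 10 glycosidases Hexa and Gla rose with FAN in both regimens, Glb1, Neu1 and Naglu fell in both, and Gaa, Gusb, Man2b1, Manba and Idua did not pass in either. None of the 5 called directions turned with library-size scaling, although the fall of Naglu was then not called in either regimen. Hexa (ENSMUSG00000025232, chr9:59539540-59565109) encodes the alpha subunit of beta-hexosaminidase, which degrades the ganglioside GM2. It measured 119, 110.0, 134 and 124 CPM in FAN kidneys fed ad libitum and 70.7, 85.1, 100.9 and 81.6 in those on time restriction, against 34.9, 30.1, 24.5 and 25.2 under the former and 28.8, 29.1, 31 and 24 under the latter regimen in vehicle kidneys. The lowest FAN library lay well above the highest vehicle library, and the FAN groups did not overlap. The changes were 2.08 ± 0.14 (adjusted p = 9.06e-10) and 1.58 ± 0.14 (adjusted p = 9.29e-08) with FAN and −0.52 ± 0.13 (adjusted p = 0.00572) with time restriction in FAN kidneys. Alpha-galactosidase A (Gla), the enzyme missing in Fabry disease, rose by 0.81 ± 0.18 and 0.84 ± 0.19.

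Beta-galactosidase (Glb1, ENSMUSG00000045594, chr9:114401076-114474898) and the sialidase Neu1 (ENSMUSG00000007038, chr17:34931253-34935953) trim galactose and sialic acid from glycans and sit with Ctsa in one complex. Glb1 measured 109.8, 95.8, 58.6 and 58.9 CPM with FAN and 202, 256, 245 and 254 with vehicle under ad libitum feeding, and 123, 131, 130.5 and 124 with FAN and 268, 276, 268 and 259 with vehicle under time restriction. Neu1 measured 140.0, 127, 139 and 111 CPM in FAN kidneys fed ad libitum and 212, 204, 206 and 279.5 in those on time restriction, against 384, 374, 335 and 357 under the former and 411, 394, 371 and 340.1 under the latter regimen in vehicle kidneys. For both genes the order of the groups was FAN ad libitum, FAN time-restricted and then vehicle, with no overlap between the FAN groups or between FAN and vehicle. The changes with FAN under ad libitum feeding and time restriction were −1.56 ± 0.17 (adjusted p = 3.37e-07) and −1.07 ± 0.17 (adjusted p = 5.94e-05) for Glb1. They were −1.49 ± 0.13 (adjusted p = 1.97e-08) and −0.75 ± 0.13 (adjusted p = 1.18e-04) for Neu1. With time restriction in FAN kidneys Glb1 was higher by 0.65 ± 0.17 (adjusted p = 0.00656) and Neu1 by 0.80 ± 0.13 (adjusted p = 1.24e-04), which became −0.003 and 0.15, neither called higher, with library-size scaling. Alpha-N-acetylglucosaminidase (Naglu), which acts on heparan sulfate, fell with changes of −0.76 ± 0.15 and −0.45 ± 0.15, the latter not called without FAN time-restricted 6, and likewise without vehicle time-restricted 2 or 3 (log2 change −0.41 to −0.35, adjusted p = 0.0603 to 0.0829). The 12 proximal tubule markers moved in the same order of groups, with 10 lower with FAN under ad libitum feeding, 9 lower under time restriction and 10 higher with time restriction in FAN kidneys. Their part in the change of Glb1 and Neu1 was not tested. Per kilobase, Neu1 made up 37.9% ± 2.3 (SD, n = 4) of the glycosidase transcripts in vehicle kidneys fed ad libitum and 18.7% ± 1.7 in FAN kidneys fed ad libitum, and Hexa went from 5.6% ± 0.98 to 33.3% ± 5.7.

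The 3 sulfatases also moved apart, Arsa up and Arsb and Ids down under ad libitum feeding. Arylsulfatase A (Arsa, ENSMUSG00000022620, chr15:89472476-89477425), which desulfates sulfatides, measured 18.5, 21, 13.6 and 14 CPM with FAN and 5.44, 7.47, 7.19 and 6.43 with vehicle under ad libitum feeding, and 10.6, 14.3, 11.7 and 10.6 with FAN and 6.1, 7.48, 7.69 and 7.01 with vehicle under time restriction. Both FAN groups lay above their vehicle groups, and the FAN groups overlapped each other. Arsa rose by 1.34 ± 0.17 (adjusted p = 1.75e-06) and 0.74 ± 0.17 (adjusted p = 0.0017) with FAN. Time restriction in FAN kidneys changed it by −0.51 ± 0.16 (adjusted p = 0.0246), a call lost without FAN ad libitum 6 or 7, and likewise without FAN time-restricted 6 or 12 (log2 change −0.46 to −0.38, adjusted p = 0.069 to 0.109). Arylsulfatase B (Arsb, ENSMUSG00000042082, chr13:93771630-93943016), which acts on dermatan and chondroitin sulfate, measured 91.1, 78.9, 41.6 and 30.4 CPM in FAN kidneys fed ad libitum and 99.5, 84.2, 90.7 and 125 in those on time restriction, against 132, 129, 116 and 115 under the former and 183, 115, 146 and 152 under the latter regimen in vehicle kidneys. FAN ad libitum 6 and 7 lay near the lowest FAN libraries on time restriction, and 10 and 12 lay far below every other library. Arsb fell with FAN under ad libitum feeding (−1.02 ± 0.26, adjusted p = 0.00237), did not pass under time restriction (−0.58), and was higher by 0.72 ± 0.26 (adjusted p = 0.0407) with time restriction in FAN kidneys. The last call was lost without FAN ad libitum 10 or 12, and likewise without FAN time-restricted 6, 11 or 12 (log2 change 0.50 to 0.75, adjusted p = 0.0566 to 0.117) and with library-size scaling (0.05). Iduronate 2-sulfatase (Ids) fell under ad libitum feeding (−0.49 ± 0.20). This call did not hold without FAN ad libitum 10 or 12, and likewise without vehicle ad libitum 1, 2 or 4 (log2 change −0.53 to −0.34, adjusted p = 0.053 to 0.152), and the sign turned with library-size scaling (0.22).

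Of the 6 genes of lipid breakdown and export, Asah1, Npc2 and Npc1 rose and Smpd1 fell under ad libitum feeding, Asah1, Npc2 and Smpd1 also under time restriction, and Psap and Lipa did not pass in either FAN comparison. Library-size scaling turned none of the called directions. Acid ceramidase (Asah1, ENSMUSG00000031591, chr8:41340197-41374773), which splits ceramide, measured 126, 128, 194 and 149.7 CPM with FAN and 75.1, 96.4, 92.8 and 83.9 with vehicle under ad libitum feeding, and 174, 164, 133 and 155 with FAN and 91.8, 86.5, 94.3 and 115 with vehicle under time restriction. All FAN libraries exceeded all vehicle libraries, and the FAN groups overlapped. The changes with FAN were 0.78 ± 0.14 (adjusted p = 1.44e-04) and 0.69 ± 0.14 (adjusted p = 8.39e-04). Acid sphingomyelinase (Smpd1, ENSMUSG00000037049, chr7:105554360-105558389), the enzyme that makes ceramide from sphingomyelin, had 50, 53.3, 34.1 and 34.7 CPM in FAN kidneys fed ad libitum and 53.2, 49.8, 53 and 56.5 in those on time restriction, against 78, 114, 96.8 and 94.9 under the former and 115, 111, 109 and 93.6 under the latter regimen in vehicle kidneys. Every FAN library was below every vehicle library. The changes of Smpd1 were −1.16 ± 0.15 (adjusted p = 2.38e-06) and −1.01 ± 0.15 (adjusted p = 2.94e-05). Transcripts of the ceramide-making enzyme thus fell while those of the ceramide-splitting enzyme rose, in both regimens.

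Lysosomal acid lipase (Lipa, ENSMUSG00000024781, chr19:34492318-34527474) releases fatty acids and cholesterol from lipoprotein and lipid droplet esters. It measured 142, 114, 96.1 and 82.3 CPM with FAN and 167, 128, 127 and 146 with vehicle under ad libitum feeding, and 145, 149.9, 182 and 219 with FAN and 196, 129.6, 194 and 204 with vehicle under time restriction. The FAN ad libitum group was the lowest, and it overlapped its vehicle group (−0.38 ± 0.18, adjusted p = 0.0765). Time restriction in FAN kidneys raised Lipa by 0.68 ± 0.18 (adjusted p = 0.00902), which became 0.02 and was not called with library-size scaling. The cholesterol carriers Npc2, soluble, and Npc1, in the membrane, rose by 0.69 ± 0.11 and 0.47 ± 0.16 under ad libitum feeding. The call of Npc1 was lost without FAN ad libitum 7 (log2 change 0.39, adjusted p = 0.0563). Prosaposin (Psap), the precursor of the saposins that activate sphingolipid hydrolases, was within −0.05 to 0.06 in the 4 comparisons of pairs of groups.

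Membrane proteins differed from gene to gene. Scarb2 and Cln3 rose with FAN under ad libitum feeding, Lamp1 and Mcoln1 fell (both turned positive with library-size scaling, 0.24 and 0.34), and Lamp2, Laptm4a and Laptm4b did not pass. Scarb2 (ENSMUSG00000029426, chr5:92441314-92506833), or LIMP-2, carries glucocerebrosidase to the lysosome. It measured 127, 145, 133 and 128 CPM in FAN kidneys fed ad libitum and 110.4, 121, 139 and 102.03 in those on time restriction, against 46.4, 63.6, 49.3 and 38.5 under the former and 55.7, 64.2, 61.7 and 66.9 under the latter regimen in vehicle kidneys. FAN and vehicle did not overlap in either regimen, and the change was 1.43 ± 0.14 (adjusted p = 7.32e-08) and 0.93 ± 0.14 (adjusted p = 3.02e-05). Lamp1 (ENSMUSG00000031447, chr8:13159161-13175338) and Lamp2 (ENSMUSG00000016534, chrX:38401357-38456454) are the main glycoproteins of the membrane, and Lamp2 also serves chaperone-mediated autophagy. Lamp1 measured 713, 636, 682 and 576 CPM with FAN and 895, 936, 859 and 896 with vehicle under ad libitum feeding, and 916, 1052, 1061 and 1109 with FAN and 1023, 881, 975 and 1068 with vehicle under time restriction. Its FAN ad libitum libraries lay below all 12 others, and the FAN time-restricted group overlapped its vehicle group.

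Lamp1 fell with FAN under ad libitum feeding (−0.46 ± 0.12, adjusted p = 0.00271), did not pass under time restriction (0.07 ± 0.12) and was higher by 0.67 ± 0.12 (adjusted p = 4.09e-04) with time restriction in FAN kidneys. Lamp2 measured 408, 389.5, 647 and 489 CPM in FAN kidneys fed ad libitum and 963, 820.3, 688 and 1022 in those on time restriction, against 580.2, 543, 510.3 and 519 under the former and 638, 425, 552 and 685 under the latter regimen in vehicle kidneys. The FAN time-restricted group was the highest, all 4 of its libraries exceeding all 12 others. Lamp2 did not pass with FAN under ad libitum feeding (−0.16 ± 0.18), rose under time restriction by 0.60 ± 0.18 (adjusted p = 0.0116) and was higher by 0.85 ± 0.18 (adjusted p = 0.00167) with time restriction in FAN kidneys. With library-size scaling the feeding changes were 0.03 for Lamp1 and 0.21 for Lamp2, and neither was called. Cln3 (ENSMUSG00000030720, chr7:126571207-126585817), the membrane protein lost in juvenile Batten disease, measured 26.3, 26.4, 17.1 and 18.2 CPM with FAN and 13.5, 15.2, 16.9 and 16.2 with vehicle under ad libitum feeding, and 13.5, 17, 16.2 and 12.9 with FAN and 15, 17.5, 16.2 and 12.6 with vehicle under time restriction. FAN ad libitum 6 and 7 were the highest, and 10 and 12 lay just above the highest vehicle library of that regimen. Cln3 rose by 0.51 ± 0.16 (adjusted p = 0.00897) with FAN under ad libitum feeding and changed by −0.56 ± 0.16 (adjusted p = 0.0116) with time restriction in FAN kidneys. The calcium channel Mcoln1 fell with changes of −0.36 ± 0.11 and −0.37 ± 0.11. Laptm4a rose under time restriction by 0.34 ± 0.12, a call lost without FAN time-restricted 6, 10 or 11, and likewise without vehicle time-restricted 1, 2 or 3 (log2 change 0.26 to 0.35, adjusted p = 0.0586 to 0.142).

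All 6 proton pump genes had negative log2 changes with FAN under ad libitum feeding and 5 passed (83.3%, against 60.7% of all genes). With library-size scaling, however, Atp6v1a, Atp6v1h and Atp6ap1 were positive (0.15, 0.33 and 0.25), 2 were called higher and none lower. The summed level of the 6 genes was 760.1 ± 78.5 CPM (SD, n = 4) with FAN and 1169 ± 31.9 with vehicle under ad libitum feeding, and 1081 ± 50.5 with FAN and 1255 ± 93.1 with vehicle under time restriction. Atp6v0c (ENSMUSG00000024121, chr17:24163866-24169702) encodes the proteolipid that forms the proton-carrying ring of the V0 sector. It measured 64.6, 67.3, 36 and 29.1 CPM in FAN kidneys fed ad libitum and 42.6, 58, 49.5 and 46.5 in those on time restriction, against 93.3, 102.8, 92.8 and 117 under the former and 126, 105, 91 and 55.2 under the latter regimen in vehicle kidneys. The FAN and vehicle groups were apart under ad libitum feeding and overlapped under time restriction through vehicle time-restricted 4. The fall was −1.04 ± 0.25 (adjusted p = 0.0017) and −0.94 ± 0.25 (adjusted p = 0.00601). The processed copies Atp6v0c-ps1 and Atp6v0c-ps2, which could share reads with Atp6v0c, reached at most 0.075 and 0.449 CPM.

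Atp6v1a (ENSMUSG00000052459, chr16:44085402-44139705) and Atp6v1b2 (ENSMUSG00000006273, chr8:69088646-69113711) encode the catalytic A and the B subunit of the V1 sector, B2 being the widely expressed form. Atp6v1a measured 236, 189.8, 302.3 and 201.3 CPM with FAN and 317, 342, 354 and 329 with vehicle under ad libitum feeding, and 421, 361, 321 and 462 with FAN and 418, 308, 351 and 475 with vehicle under time restriction. FAN ad libitum lay below vehicle ad libitum and below FAN time-restricted without overlap, and FAN time-restricted overlapped its vehicle group. It fell under ad libitum feeding (−0.53 ± 0.16, adjusted p = 0.0097), had a change of 0.01 ± 0.16 under time restriction that did not pass, and was higher by 0.75 ± 0.17 (adjusted p = 0.00221) with time restriction in FAN kidneys. Atp6v1b2 fell with changes of −0.84 ± 0.11 and −0.36 ± 0.11, the latter lost without vehicle time-restricted 1 (log2 change −0.30, adjusted p = 0.0561). With time restriction in FAN kidneys 4 of the 6 genes were higher (66.7%, against 31.8% of all genes), Atp6v1a, Atp6v1b2 (0.63), Atp6v1h (0.61) and Atp6v0d1 (0.42). None of these was called higher with library-size scaling (0.11, −0.008, −0.02 and −0.23). The accessory subunit Atp6ap1 fell with changes of −0.45 ± 0.09 and −0.27 ± 0.09, the latter lost without FAN time-restricted 6, 10 or 12, and likewise without vehicle time-restricted 3 (log2 change −0.28 to −0.25, adjusted p = 0.0551 to 0.0806). The 11 intercalated cell markers, some of them pump subunits of that cell type, summed to 277 to 465 CPM with FAN under ad libitum feeding, 500.5 to 561 with FAN under time restriction and 529.7 to 833 with vehicle. Of these markers 9 were lower with FAN under ad libitum feeding by TMM scaling (81.8%, against 60.7% of all genes). With library-size scaling 4 of the markers were lower and 1 was higher, with a median log2 change of −0.08. Their part and that of proximal tubule cells in the pump's change was not tested.

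Of the 3 transcription factors Mitf and Tfe3 rose with FAN under ad libitum feeding and Tfeb did not pass in any comparison. Mitf (ENSMUSG00000035158, chr6:97807052-98021349) measured 20.2, 20.6, 24.4 and 21.9 CPM in FAN kidneys fed ad libitum and 20.8, 14.7, 19.8 and 15.1 in those on time restriction, against 13.2, 11.5, 10.8 and 12 under the former and 13.1, 11.2, 13.4 and 16 under the latter regimen in vehicle kidneys. All FAN ad libitum libraries exceeded all vehicle libraries, and the time-restricted groups overlapped. It rose by 0.87 ± 0.14 (adjusted p = 3.10e-05) and 0.40 ± 0.14 (adjusted p = 0.0276), and the second call was lost without FAN time-restricted 6 or 11, and likewise without vehicle time-restricted 1, 2 or 3 (log2 change 0.28 to 0.40, adjusted p = 0.0586 to 0.162). Tfe3 (ENSMUSG00000000134, chrX:7762560-7775202) measured 35.7, 38, 22.4 and 29.1 CPM with FAN and 16.9, 18.1, 22.5 and 20.6 with vehicle under ad libitum feeding, and 18, 21.8, 23.8 and 18.9 with FAN and 19.9, 22.6, 19.7 and 15.6 with vehicle under time restriction. FAN ad libitum 10 lay within the vehicle range and the other 3 above it. The change was 0.69 ± 0.16 (adjusted p = 0.00126) under ad libitum feeding and 0.08 ± 0.16 under time restriction, which did not pass, and time restriction lowered Tfe3 in FAN kidneys (−0.60 ± 0.16, adjusted p = 0.0086). Tfeb (ENSMUSG00000023990, chr17:47737030-47792419) measured 13.7, 16.1, 9.62 and 12.6 CPM in FAN kidneys fed ad libitum and 9.07, 11.2, 12.2 and 9.2 in those on time restriction, against 11.9, 13.5, 10.1 and 14.2 under the former and 11.3, 13.4, 11.6 and 6.44 under the latter regimen in vehicle kidneys, and every group overlapped the others. Its changes with FAN were 0.07 ± 0.20 and −0.04 ± 0.20. These are transcript levels, and the location and phosphorylation of the proteins, through which TFEB is mainly controlled, were not measured.

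Progranulin (Grn, ENSMUSG00000034708, chr11:102430315-102437048), a secreted and lysosomal glycoprotein cut into granulins, measured 205, 194, 96.7 and 106 CPM with FAN and 94.2, 113, 93.7 and 95.7 with vehicle under ad libitum feeding, and 80.7, 107, 124 and 90.1 with FAN and 108, 137, 111 and 74.3 with vehicle under time restriction. Libraries 6 and 7 of FAN ad libitum stood apart from all others, and libraries 10 and 12 lay in the vehicle range. The change of 0.60 ± 0.23 (adjusted p = 0.03) under ad libitum feeding was lost without FAN ad libitum 6 or 7, and likewise without vehicle ad libitum 1, 3 or 4 (log2 change 0.41 to 0.58, adjusted p = 0.0657 to 0.128). Without both FAN ad libitum 6 and 7 it was −0.02 (adjusted p = 0.947).

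**Figure D3:**
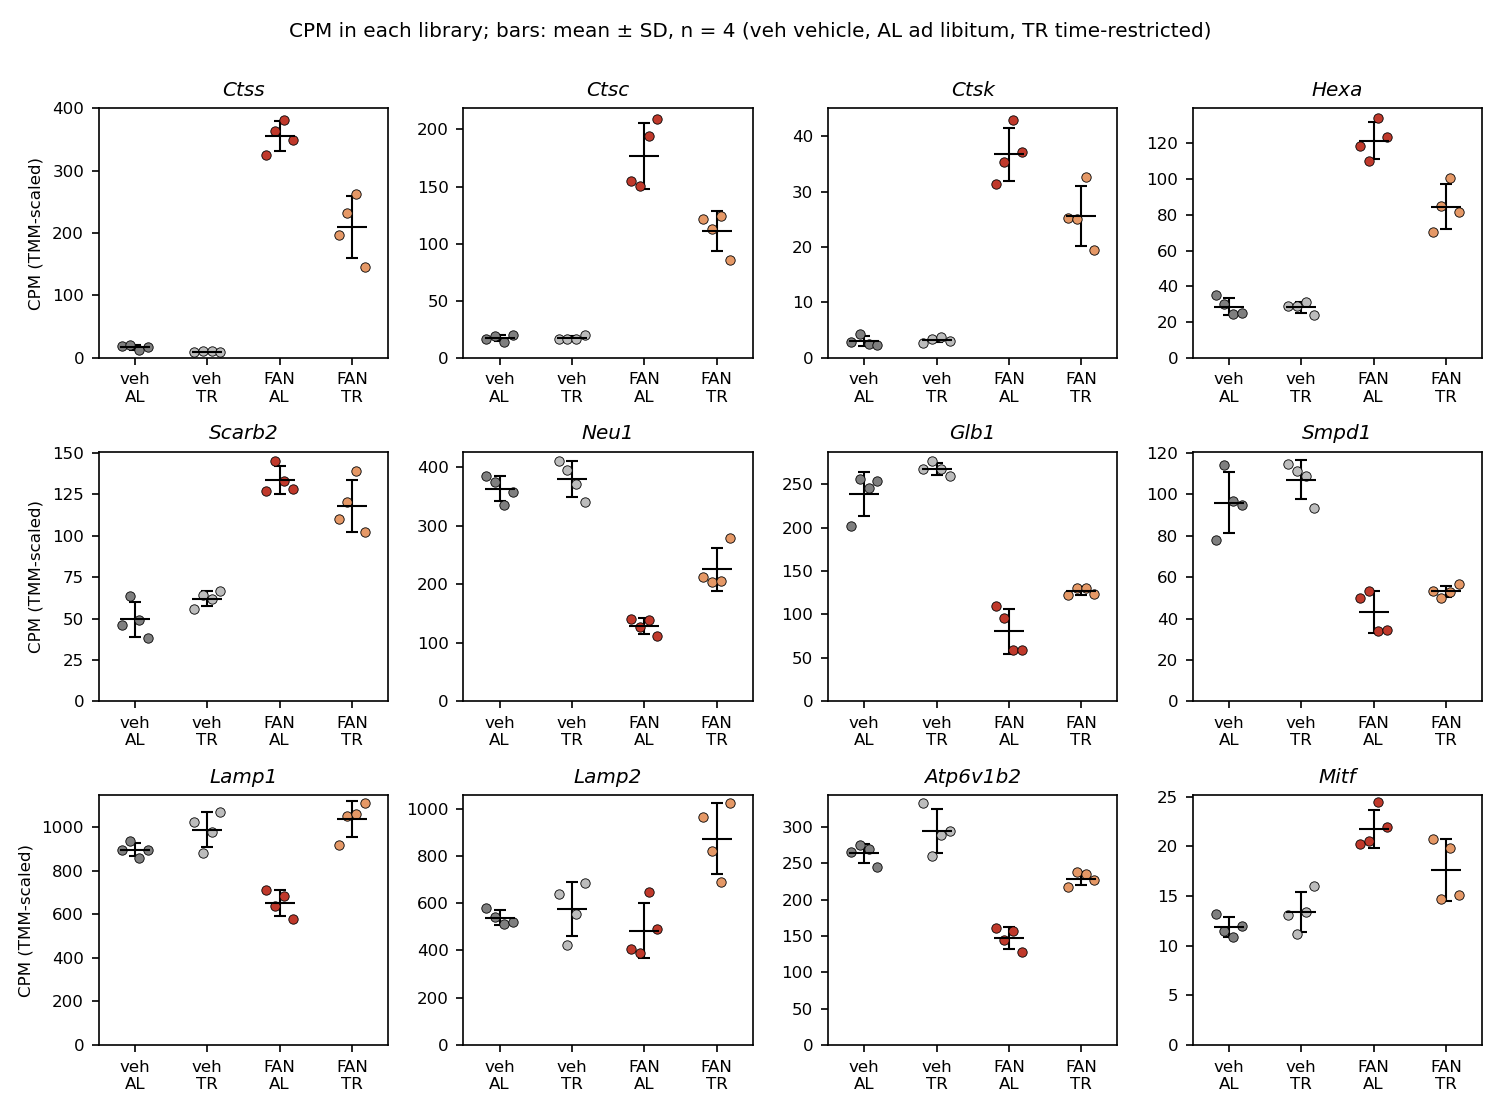
TMM-scaled CPM (vertical axes, from 0) of 12 of the genes in each of the 16 libraries, by group, with the mean and SD of the 4 libraries. Ctss, Ctsc, Ctsk, Hexa and Scarb2 are higher in both FAN groups than in vehicle, Neu1, Glb1 and Smpd1 are lower in both, and Lamp1 and Atp6v1b2 are lowest in FAN ad libitum. With library-size scaling the change of Lamp1 under ad libitum feeding turned positive.

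Levels were also compared between genes, as CPM per kilobase of exon. The length merges all annotated transcripts of a gene, so the order of genes depends on it. In vehicle ad libitum libraries Lamp1 (335 ± 11.7, SD, n = 4) and Psap (324 ± 51.3) led, a difference within their spread, followed by Lgmn (197 ± 19.9), Laptm4a (149.5 ± 7.15), Ctsd (131 ± 23.2) and Ctsz (115 ± 8.26). Laptm4a, Ctsd and Ctsz lay within the spread of their neighbours. In FAN ad libitum libraries Psap (330.4 ± 96.2), Ctss (262 ± 17.8), Lamp1 (244 ± 22.2) and Lgmn (242 ± 51.3) led, and no neighbours in that order differed beyond their spread. Ctss had stood at 12.7 ± 2.92 in vehicle ad libitum libraries. The lowest genes were Gla and Npc1 in vehicle ad libitum libraries (1.61 ± 0.285 and 1.27 ± 0.105) and Tfeb and Npc1 in FAN ad libitum libraries (2.3 ± 0.475 and 1.76 ± 0.341). The summed CPM of all 48 genes, by TMM scaling, was 8628 ± 548 with FAN and 8643 ± 369 with vehicle under ad libitum feeding, and 9827 ± 474 with FAN and 9490 ± 426 with vehicle under time restriction. These sums depend on the scaling. With library-size scaling the median log2 change of the 48 genes with FAN under ad libitum feeding went from 0.11 to 0.81, and that of all genes from 0.06 to 0.76.

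The FAN changes were set side by side across regimens, which share no library. Of the 48 genes 11 were higher in both, 11 lower in both, 11 passed only under ad libitum feeding, Lamp2 and Laptm4a passed only under time restriction, and 13 passed in neither. No gene was called in opposite directions. The change was larger in absolute size under ad libitum feeding for 34 of 48 genes (70.8%), against 67.75% of all genes. Across the 48 genes the log2 changes had a Pearson r of 0.95, against 0.87 over all genes, a description in which Ctss, Ctsk and Ctsc carry the range and all libraries share 1 model.

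The difference between the regimens was tested as an interaction, the FAN change under time restriction minus that under ad libitum feeding. It passed for 2 genes (4.17%, against 9.16% of all genes), 1 positive (against 7.76%) and 1 negative (against 1.4%), and 19 of 48 (39.6%) had an unadjusted p under 0.05, against 23.9% of all genes. Neu1 had 0.74 ± 0.18 (adjusted p = 0.0128), its fall being smaller under time restriction, and with library-size scaling it was 0.14 and not called. Ctsc had −0.67 ± 0.21 (adjusted p = 0.048), its rise being smaller under time restriction, and this call was lost without FAN ad libitum 10 or 12, and likewise without FAN time-restricted 6, 10 or 12, and likewise without vehicle ad libitum 1, 2, 3 or 4, and likewise without vehicle time-restricted 1, 2, 3 or 4 (log2 change −0.74 to −0.56, adjusted p = 0.0507 to 0.102). DESeq2 called 6, with Lamp1, Lamp2 and Atp6v1b2 higher and Ctsb lower added. By edgeR these had adjusted p of 0.0571, 0.0709, 0.0623 and 0.147. By edgeR with all libraries, a difference between the regimens was thus not shown for any of the 11 genes called only under ad libitum feeding, among which DESeq2 called Lamp1 and Ctsb.

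In vehicle kidneys feeding changed none of the 48 genes by edgeR (0 of 17731 genes, 0%), and 2 (4.17%, Ctss and Scarb2) had an unadjusted p under 0.05, against 6.45% of all genes. The largest change was that of Ctss, −0.79 ± 0.18 (adjusted p = 0.22), with the 4 time-restricted libraries below the 4 ad libitum libraries. DESeq2 called Ctss lower, among 57 genes. By TMM scaling the estimates for Ctss with time restriction were −0.79 in vehicle kidneys, not called by edgeR, and −0.76 in FAN kidneys. The interaction by edgeR was 0.03 ± 0.25, with an adjusted p of 0.963. With library-size scaling the 9 cysteine proteases had a median interaction of −0.81, against −0.57 over all genes, and 6 of them were called lower. A like size of the 2 changes of Ctss is therefore not shown apart from the scaling. Groups did not overlap for 4 of 48 genes (Ctss lower, and Ctsb, Glb1 and Npc2 higher with time restriction), against 4.85% of all genes, 2.85% higher.

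FAN ad libitum libraries differed among themselves. Column names end in S numbers, whose meaning is not given and which are read here as sheet positions. They fall into 3 runs of numbers. The earliest run holds FAN ad libitum 6 and 7, FAN time-restricted 6 and vehicle libraries 1 and 2 of each regimen, the middle run vehicle libraries 3 and 4, and the latest run the other FAN libraries. Whether the runs mark a batch is not stated. For 25 of 48 genes FAN ad libitum 6 and 7 both lay above 10 and 12, for 13 both lay below, and for Gaa, Arsb and Atp6v0c the means of the pairs differed by at least 2-fold. Acid alpha-glucosidase (Gaa), the glycogen-degrading enzyme, measured 55.9, 63.6, 29.6 and 23.2 CPM in FAN ad libitum and 37, 46.7, 38.4 and 34.9 in vehicle ad libitum libraries, so that 6 and 7 lay above vehicle and 10 and 12 below. The sign against vehicle was the same in both pairs for 39 of 48 genes. The 33 called genes are among them, having been called on these same libraries. Without 6 and 7, an alternative chosen after seeing the data, 13 genes were higher and 20 lower. The share of higher among those called was 39.4%, against 48.9% among all genes called in that fit. The calls of Ctsb (0.29), Npc1 (0.22), Cln3 (0.14), Tfe3 (0.36) and Grn (−0.02) were then lost, and Gaa (−0.63, adjusted p = 0.0425), Psap (−0.44, adjusted p = 0.028), Man2b1 (−0.64) and Lipa (−0.72) were called lower and Laptm4a (0.29) higher. For feeding in FAN kidneys, leaving out 6 and 7 gave 13 higher and 4 lower (76.5% higher, against 77.6% among all genes called). The feeding calls of Arsa (−0.23, adjusted p = 0.419), Cln3 (−0.24, adjusted p = 0.323), Tfe3 (−0.32, adjusted p = 0.218) and Atp6v1h (0.34, adjusted p = 0.116) were then lost. Ctsa (0.43) and Smpd1 (0.62) were called higher. For the interaction it gave 7 higher and 1 lower, with Tpp1, Glb1, Arsb, Lamp1, Atp6v0d1 and Atp6v1b2 added. Of those called 87.5% were higher, against 93.4% among all genes called.

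**Figure D4:**
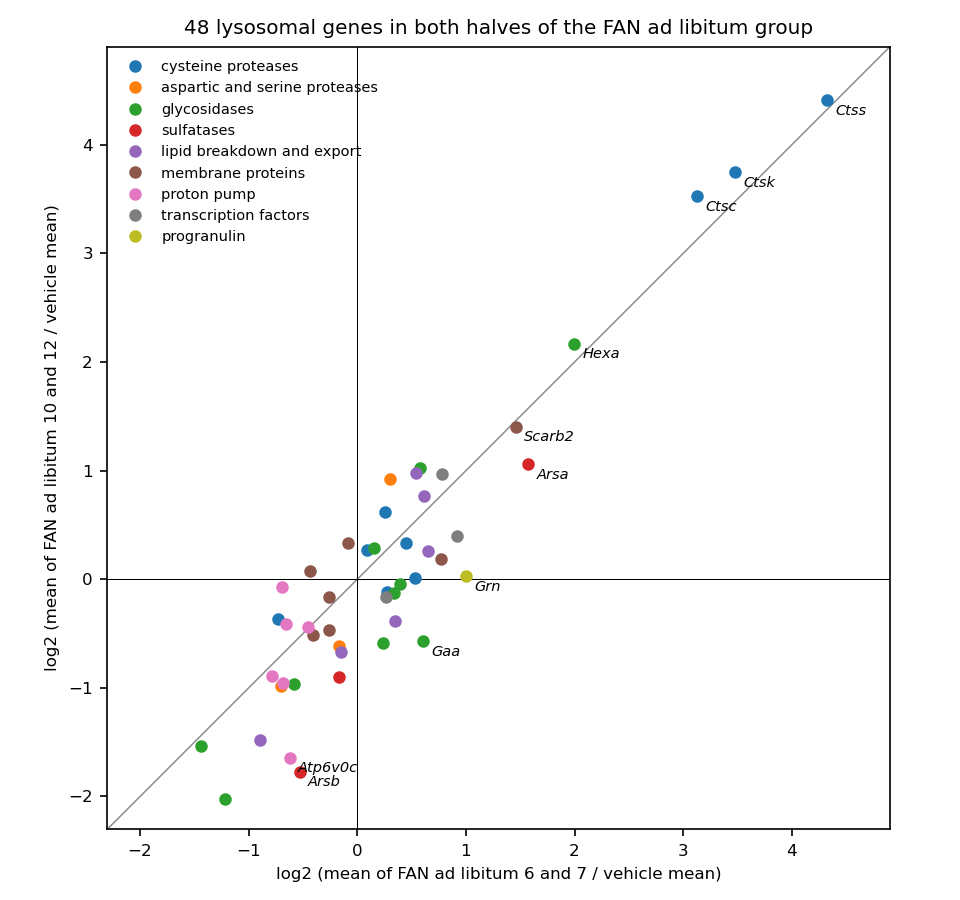
Each point is 1 of the 48 genes: log2 ratio of the mean CPM of FAN ad libitum 6 and 7 to the vehicle ad libitum mean (horizontal axis) against that of FAN ad libitum 10 and 12 (vertical axis), with the line of equality. Ctss, Ctsk, Ctsc and Hexa lie near the line far from 0, and Gaa, Arsb, Atp6v0c and Grn lie well below it.

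Within the earliest run of sheet positions alone (2 FAN ad libitum, 1 FAN time-restricted and 4 vehicle libraries) 14 genes were higher and 14 lower with FAN under ad libitum feeding, 26 of these as with all libraries. There Ctss changed by 4.09, Ctsc by 3.06, Hexa by 1.77, Neu1 by −1.55 and Glb1 by −1.19, and the calls of Ctsb, Ctso, Ctsd, Ctsa, Gla, Ids and Mcoln1 were lost. Feeding in FAN kidneys then rested on a single time-restricted library, assumed to vary like the other groups. Neu1 (0.64), Lamp2 (1.24) and Atp6v1a (0.96) stayed higher there, and Lamp1 (0.41), Glb1 (0.23) and Atp6v1b2 (0.47) did not pass. The interaction of Neu1 was 0.55 and was not called. The middle run holds vehicle libraries only and the latest FAN libraries only, so FAN cannot be compared with vehicle within them. With position as a covariate the FAN comparison under time restriction kept 9 genes higher and 3 lower (75% higher, against 60.8% among all genes called).

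Other lysosomal genes, in lists chosen for their place in the pathway, were called lower more often than higher with FAN under ad libitum feeding by TMM scaling, and higher more often than lower by library-size scaling. These lists were drawn up with earlier results of these data known. Of 35 other hydrolases and cofactors 5 were higher and 15 lower (18 and 6 by library size), and of 32 tested other membrane proteins 8 were higher and 15 lower (15 and 1), with median log2 changes of −0.31 and −0.36 against 0.06 over all genes. The shares called were 57.1% and 71.9%, against 60.7% of all genes. Among the hydrolases the phospholipase Pla2g15 rose by 1.61 ± 0.18 (adjusted p = 3.48e-07), Ggh by 0.96 and Ctsw by 1.46. The chitobiase Ctbs (−1.55 ± 0.12, adjusted p = 6.14e-09), the fucosidase Fuca1 (−1.36 ± 0.11, adjusted p = 1.00e-08) and the GM2 activator Gm2a (−1.22 ± 0.10, adjusted p = 1.56e-08) fell, and stayed called lower by library size (−0.86, −0.66 and −0.53). With time restriction in FAN kidneys 14 of the 35 were higher and 2 lower (3 and 19 by library size), 45.7% called against 31.8% of all genes. Ctbs (1.20), Gm2a (0.95) and Fuca1 (0.98) were among the 14 and were the 3 called higher by library size, and Pla2g15 (−0.61) and Sgsh (−0.75) were the 2.

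Gpnmb, Cd68 and the metal transporter Slc11a1, membrane proteins known from phagocytes, rose with FAN under ad libitum feeding by 5.32 ± 0.39 (adjusted p = 2.97e-09), 2.96 ± 0.25 (adjusted p = 1.81e-08) and 3.47 ± 0.31 (adjusted p = 3.12e-08). Gpnmb was lower with time restriction in FAN kidneys (−2.40 ± 0.32), as were Slc15a3 (−1.48) and Tpcn2 (−0.83). Tmem192, the sialic acid exporter Slc17a5 and the amino acid exporter Slc66a1 fell (−1.01, −0.83 and −0.89), and the first 2 were higher with time restriction in FAN kidneys (0.75 and 0.87), as was Mfsd1 (0.70). Of these falls and later increases only the fall of Tmem192 was called by library size. Of the 32 membrane proteins 6 were higher and 7 lower with time restriction in FAN kidneys (0 and 24 by library size). By TMM scaling 40.6% were called, against 31.8% of all genes.

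Of 18 other proton pump subunits 10 were lower and 2 higher with FAN under ad libitum feeding (4 and 7 by library size), and 12 were higher and 3 lower with time restriction in FAN kidneys (0 and 7). Among them Atp6v1b1, Atp6v0a4, Atp6v0d2, Atp6v1g3 and Atp6v1c2 are also counted above as intercalated cell markers. The shares called by TMM scaling were 66.7% and 83.3%, against 60.7% and 31.8% of all genes. The 2 that rose were Tcirg1 (1.02 ± 0.22, adjusted p = 7.39e-04), the a3 subunit of osteoclasts and macrophages, and Atp6v1g2 (0.70 ± 0.19, adjusted p = 0.00375). Atp6v0e2 (−1.23), Atp6v1c2 (−1.75) and Atp6v1e1 (−0.99) fell with the smallest p and stayed called lower by library size (−0.53, −1.05 and −0.30). Time restriction in FAN kidneys raised Atp6v1g1 (0.93), Atp6v1e1 (0.72) and the prorenin receptor Atp6ap2 (0.77), none of them called by library size, and lowered Tcirg1 (−0.77), Atp6v0a1 (−0.73) and Atp6v1g2 (−0.51).

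Mannose 6-phosphate sorting tags hydrolases for the lysosome. Of its 14 genes 1 was higher (Gnptab, 0.88) with FAN under ad libitum feeding and 3 were lower (Gnptg, −0.94, Ap1s1, −0.47, and the receptor M6pr, −0.50), against 10 and 0 by library size, where Ap1s1 and M6pr turned positive (0.22 and 0.19). The 4 called are 28.6% of the list, against 60.7% of all genes. Gnptab and Gnptg encode subunits of 1 phosphotransferase and moved in opposite directions. With time restriction in FAN kidneys Gnptg (0.84) and M6pr (0.38) were higher and Gnptab (−0.56) and Gga3 (−0.74) lower, against 0 higher and 12 lower by library size. The share called by TMM scaling was 28.6%, against 31.8% of all genes.

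Of 36 autophagy genes 2 were higher and 17 lower with FAN under ad libitum feeding (21 and 2 by library size), and 13 were higher and 2 lower with time restriction in FAN kidneys (0 and 23). The shares called by TMM scaling were 52.8% and 41.7%, against 60.7% and 31.8% of all genes. Wipi2 (−0.99 ± 0.09, adjusted p = 5.63e-08), Gabarapl2 (−0.82 ± 0.11, adjusted p = 3.12e-06) and Map1lc3a (−1.09 ± 0.16, adjusted p = 9.11e-06), which act in building autophagosomes, fell, of which Wipi2 stayed called by library size (−0.29). Atg9b and Atg9a, scramblases that feed the growing membrane, rose by 2.36 and 0.81 and were lower with time restriction in FAN kidneys (−2.34 and −0.93). Of 27 genes of mTORC1 and its control of TFEB, 5 were higher and 12 lower with FAN under ad libitum feeding (14 and 6 by library size), and 12 were higher and 1 lower (Depdc5, −0.50) with time restriction in FAN kidneys (2 and 14). The shares called were 63% and 48.1%, against the same 60.7% and 31.8%. The kinase Mtor (−2.08 ± 0.22, adjusted p = 2.31e-07), Nprl2 (−1.45 ± 0.09, adjusted p = 6.04e-10) of the GATOR1 complex and Lamtor2 (−1.42 ± 0.11, adjusted p = 4.14e-09) of the Ragulator scaffold fell, and stayed called lower by library size (−1.37, −0.75 and −0.72). The GTPase gene Rragd (0.94 ± 0.15, adjusted p = 3.95e-05), Sesn1 (0.75 ± 0.13, adjusted p = 7.30e-05) and Mlst8 (0.55 ± 0.18, adjusted p = 0.0115) rose. With time restriction in FAN kidneys Lamtor2, Lamtor5 and Lamtor4 were higher (0.82, 0.98 and 1.04), the last 2 also by library size (0.35 and 0.42).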

How the data were processed

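Poly(A) RNA was extracted from kidney with TRIzol and made into stranded libraries, per the labels' protocols. The authors deposited 1 table of raw counts per gene. The submitters' processing notes name FastQC 0.11.5, STAR 2.5.3a, edgeR 3.26.7 and mm10 without their roles, and how reads were counted, and whether by strand, is not given in the sources used here. FAN columns could be tied to their group but not to a sample, so FAN libraries are named by column number.

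Genes passing filterByExpr (minimum count 10) were fitted with edgeR 4.0.16 (R 4.3.3), with TMM scaling, 1 model of 4 groups over 16 libraries and the robust quasi-likelihood test, two-sided. P-values were adjusted by Benjamini-Hochberg over 17731 genes, at a threshold of 0.05. They measure the spread between these samples, which may be technical. Alternatives were library-size scaling, no filter, DESeq2 1.42.0, sheet position, leaving out libraries, fits of the groups compared alone and a replicate block. Exon lengths and positions are from GENCODE M21, promoters from RefSeq.

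The members and gene lists were chosen with earlier results of these data known. Values per library are given, within each role, for the genes with the largest called changes up and down with FAN under ad libitum feeding and with feeding in FAN kidneys, for genes called by the interaction, and for Tfeb, Tfe3, Mitf, Grn, Lamp1 and Ctss. Atp6v1b2, Ctsk and Gaa were added after their values were seen. Libraries of 12450812 to 33976660 counts put 3 counts at 0.0883 to 0.241 CPM. No library of a group matched another within counting noise.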

Additional observations from a re-analysis of the deposited data

Results flagged for a closer look

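Single libraries stood apart from the other 3 of their group in 9 of 192 groups of 4 examined by the ratio of Dixon, a rate near the 1 in 20 that chance gives. In FAN time-restricted 12 Neu1 measured 280 CPM (the others 204 to 212), beta-glucuronidase (Gusb) 70 CPM (42 to 43.8) and Laptm4a 300 CPM (344 to 348). In FAN time-restricted 6 Ctsz measured 135 CPM (172 to 177) and Naglu 24.6 CPM (29.9 to 30.4). In vehicle kidneys Ctsc stood at 20.3 CPM in time-restricted 4 (16.5 to 16.8), Lipa at 130 CPM in time-restricted 2 (194 to 204), beta-mannosidase (Manba) at 92.6 CPM in ad libitum 1 (76.7 to 79) and Grn at 113 CPM in ad libitum 2 (93.7 to 95.7). The FAN change differed between the feeding regimens by the interaction test of edgeR for Ctsc (log2 difference −0.67, adjusted p = 0.048) and Neu1 (0.74, adjusted p = 0.0128), and the Neu1 value includes the high library.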

How the results depend on the processing

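Counts are given as higher and lower. Scaling by library size gave 33 and 3 genes for FAN under ad libitum feeding, 15 and 6 under time restriction, 0 and 34 for feeding in FAN kidneys and 0 and 25 for the interaction, because it moves the median of all genes. It turned the sign for FAN under ad libitum feeding of Ctsh (0.152), Ctsa (0.331), Man2b1 (0.597), Ids (0.219), Lamp1 (0.235), Lamp2 (0.528), Mcoln1 (0.342), Laptm4b (0.477), Atp6v1a (0.153), Atp6v1h (0.331) and Atp6ap1 (0.248). For feeding in FAN kidneys it turned Ctsh (−0.084), Ctso (−0.38), Lgmn (−0.615), Ctsa (−0.455), Tpp1 (−0.179), Glb1 (−0.003), Naglu (−0.438), Ids (−0.513), Asah1 (−0.568), Npc2 (−0.589), Mcoln1 (−0.616), Laptm4a (−0.438), Laptm4b (−0.552), Atp6v0d1 (−0.226), Atp6v1b2 (−0.008), Atp6v1h (−0.016) and Atp6ap1 (−0.514), and for the interaction Ctsl (−0.508), Manba (−0.564), Laptm4b (−0.562) and Atp6ap1 (−0.416). The share of higher among all genes called went from 52.8% to 83.9% for FAN under ad libitum feeding, from 56.3% to 67.2% under time restriction, from 56.4% to 8.61% for feeding in FAN kidneys and from 84.7% to 7.6% for the interaction.

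The cause was not tested for the following. Without a filter the interaction had 0 genes lower. DESeq2 gave 1 gene lower for feeding in vehicle kidneys and 4 and 2 for the interaction. With sheet position as a covariate 3 genes were lower for FAN under time restriction and 2 for the interaction. The earliest run alone, with fewer libraries, gave 4 and 12 for feeding in FAN kidneys and 2 and 8 for the interaction, none of them the genes called with all libraries, and the interaction of Atp6v0c was −0.898. Without FAN ad libitum 6 and 7 feeding in FAN kidneys had 4 genes lower and the interaction 7 higher, and with FAN under ad libitum feeding Gaa (−0.625), Psap (−0.436) and Grn (−0.018) turned.

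Leaving out 1 library at a time gave 15 to 19 higher and 14 to 17 lower for FAN under ad libitum feeding, 11 to 13 and 8 to 11 under time restriction, 11 to 13 and 5 to 8 for feeding in FAN kidneys, 0 to 0 and 0 to 0 in vehicle kidneys, and 1 to 6 and 0 to 2 for the interaction. Vehicle libraries carry the same numbers in both regimens. Deviations of same-numbered libraries correlated at 0.18, 0.12, −0.15 and −0.01. Vehicle ad libitum 1 and 2 correlated best with the time-restricted library of their own number, and 3 and 4 with another. So few correlations cannot settle whether the numbers pair the libraries. With the replicate block feeding in vehicle kidneys had 0 genes higher and 0 lower. FAN columns could not be paired.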
